A study of Rattus norvegicus with 9 samples.

Results

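Enzymes that remove reactive oxygen species and foreign or reactive small molecules were followed in RNA sequencing of the rat heart. Members were chosen by gene name alone: peroxide and superoxide enzymes (Sod1 to Sod3, Cat, Gpx, Prdx), thioredoxins and their reductases (Txn), glutathione S-transferases (Gst), aldehyde and alcohol dehydrogenases (Aldh, Adh), aldo-keto reductases (Akr1, Akr7), cytochromes P450 (Cyp), flavin monooxygenases (Fmo), UDP-glucuronosyltransferases (Ugt), heme oxygenases (Hmox) and quinone reductases (Nqo), without Aldh1a2. The names picked out 149 of 24767 loci, and 74 of them passed the filter on low values, a level of at least 1 in at least 3 libraries, which 14148 loci passed in all. Of the other 75 members, 34 were listed at 0 in all 9 libraries, and the highest level in any library was 9.95, for Adh6. None of the 8 Ugt genes passed. Fibromodulin (Fmod) entered through its spelling only and is a matrix proteoglycan, not a flavin monooxygenase. Hmox3 is a gene copy of uncertain function, and the symbol Akr1b1-ps1 marks a pseudogene. Sod1, Sod2, Gpx1, Gpx3, Gpx4, Prdx2, Txn2, Txnrd2, Txnip, Hmox2, Nqo2 and Aldh2 could not be looked up by symbol and are not analysed here.

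The 9 libraries come from Sprague-Dawley rats, 3 in each of 3 groups. The fetal group is ventricle taken at embryonic day 18, with titles that count litters. TAC libraries were made from the left ventricle of adults after transverse aortic constriction, an operation that narrows the aorta and loads the heart with pressure, and sham libraries from the left ventricle of adults operated on without the constriction. How long after surgery the adult hearts were taken is not stated, and nothing in the titles ties an adult library to an animal of its own, so p-values measure a spread between libraries that may be technical. Trizol was used for fetal RNA and a column method for adult RNA. Stage, region of the heart and RNA preparation therefore cannot be told apart in any fetal comparison.

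Superoxide dismutases turn superoxide into hydrogen peroxide, which catalase, glutathione peroxidases and peroxiredoxins remove, and thioredoxin with its reductase returns oxidised peroxiredoxins to use. Cytochromes P450, flavin monooxygenases, dehydrogenases and aldo-keto reductases modify drugs, lipids, steroids and aldehydes, and transferases then attach glutathione or a sugar. In adult heart muscle, with its dense mitochondria, much of the peroxide is made and removed in those organelles. Many of these genes are known targets of the factor Nrf2 (gene Nfe2l2), which binds the antioxidant response element in their promoters.

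Because that element is the best known regulatory sequence of the family, promoters that hold its core are shown for the member with the largest fetal decrease (Akr1cl1), for the peroxiredoxins that moved in opposite directions (Prdx5 lower and Prdx4 higher in fetal ventricle) and for the detoxifying genes Prdx1 and Gstp1, which were not called. Each window runs from 250 bases before to 50 bases after the annotated start, in RefSeq's rat assembly GRCr8, which is not the build of the expression files. Capitals mark the letters TGACNNNGC or their reverse complement. RefSeq gives Akr1cl1 the current symbol Akr1c15.
Akr1cl1 (chr17:71117908-71118207, minus strand): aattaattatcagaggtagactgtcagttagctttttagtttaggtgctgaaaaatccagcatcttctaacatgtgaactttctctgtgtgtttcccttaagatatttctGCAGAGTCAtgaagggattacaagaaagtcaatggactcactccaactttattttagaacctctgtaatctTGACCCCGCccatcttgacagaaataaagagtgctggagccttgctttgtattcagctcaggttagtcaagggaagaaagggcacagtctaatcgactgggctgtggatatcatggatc
Prdx5 (chr1:213531978-213532277, minus strand): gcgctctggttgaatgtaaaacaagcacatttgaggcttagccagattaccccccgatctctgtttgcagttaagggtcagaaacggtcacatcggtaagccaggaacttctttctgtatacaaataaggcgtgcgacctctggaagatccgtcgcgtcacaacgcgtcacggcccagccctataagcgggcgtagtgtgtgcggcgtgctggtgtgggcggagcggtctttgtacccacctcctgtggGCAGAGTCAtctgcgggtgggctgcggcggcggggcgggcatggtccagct
Prdx4 (chrX:43878483-43878782, plus strand): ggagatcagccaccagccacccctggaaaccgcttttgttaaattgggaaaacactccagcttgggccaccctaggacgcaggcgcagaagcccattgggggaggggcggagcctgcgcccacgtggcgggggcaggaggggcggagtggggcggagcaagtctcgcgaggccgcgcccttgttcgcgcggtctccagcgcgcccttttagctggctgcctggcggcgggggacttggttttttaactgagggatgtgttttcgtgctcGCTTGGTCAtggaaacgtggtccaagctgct
Prdx1 (chr5:135383656-135383955, plus strand): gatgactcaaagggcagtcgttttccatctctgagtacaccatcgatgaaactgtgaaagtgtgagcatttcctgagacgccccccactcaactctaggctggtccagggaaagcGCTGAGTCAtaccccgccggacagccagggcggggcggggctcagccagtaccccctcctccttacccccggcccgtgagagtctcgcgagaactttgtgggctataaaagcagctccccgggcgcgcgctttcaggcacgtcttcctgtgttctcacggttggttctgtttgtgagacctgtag
Gstp1 (chr1:210769656-210769955, minus strand): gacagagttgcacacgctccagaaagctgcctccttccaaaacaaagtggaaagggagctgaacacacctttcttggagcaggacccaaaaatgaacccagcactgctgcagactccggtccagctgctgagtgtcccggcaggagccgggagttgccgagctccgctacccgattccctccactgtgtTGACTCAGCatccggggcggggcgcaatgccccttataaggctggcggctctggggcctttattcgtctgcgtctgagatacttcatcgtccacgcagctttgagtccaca
In this set of windows the core lies at bases 111 to 119 and 182 to 190 for Akr1cl1, 250 to 258 for Prdx5, 270 to 278 for Prdx4, 116 to 124 for Prdx1 and 190 to 198 for Gstp1, counted from the first base printed. A promoter was found for 57 of the 74 tested members, and 12 of them (21.1%) held the core on either strand, against 12.2% of 27457 rat promoters of the same length. The core was in the window of 1 of the 6 matched members that were higher in fetal ventricle than in sham and of 4 of the 26 matched members that were lower. These are matches of letters in a window, not measured binding sites.

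Levels are rescaled FPKM (fragments per kilobase of transcript per 1e+06 fragments). After adjustment between libraries they were scaled so that the levels of a library sum to 1e+06 on average. They can be compared between genes. Log2 changes were fitted on log2(level + 1), which understates the change of low genes, and a gene was called at a Benjamini-Hochberg adjusted p below 0.05 over all 14148 loci. The fragment number implied by the deposited confidence bounds had a median over the tested members of 80.5 to 300 per library. Replicate 1 was the highest of its group in all 3 groups for 9.46% of tested members and for 9.53% of all tested loci. Of the cardiac markers with a symbol, myoglobin (Mb) averaged 1112 ± 422 in fetal ventricle, 20170 ± 1174 in TAC and 21120 ± 3262 in sham (SD, n = 3 each). Cardiac actin (Actc1) was 14030 or above in every library and stood at 135300 in fetal replicate 2.

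Fetal ventricle was set against sham left ventricle to ask how this enzyme repertoire differs between the fetal and the adult heart. In fetal ventricle 31 of the 74 tested members were lower than in sham, 8 were higher and 35 were not called. Over all tested loci 23.1% were lower and 22.5% higher, 45.7% in all. The median log2 change was -0.65 over the tested members and 0.05 over all tested loci. Without the filter, over the 115 members above 0 in any library, it was -0.16, with 11 higher and 29 lower calls. The filter shapes this count, since 12 tested members reached a level of 1 in no fetal library and 1 reached it in no adult library. In whole tissue, fewer cells of a type and less RNA per cell cannot be told apart. Fetal libraries lay above all sham libraries for 11 tested members and below them for 38, against 29.2% and 28.8% of all tested loci. The split of calls was 4 higher and 30 lower without fetal replicate 1, while the total of called members ran from 27 to 42 over the alternatives.

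**Figure D1:**
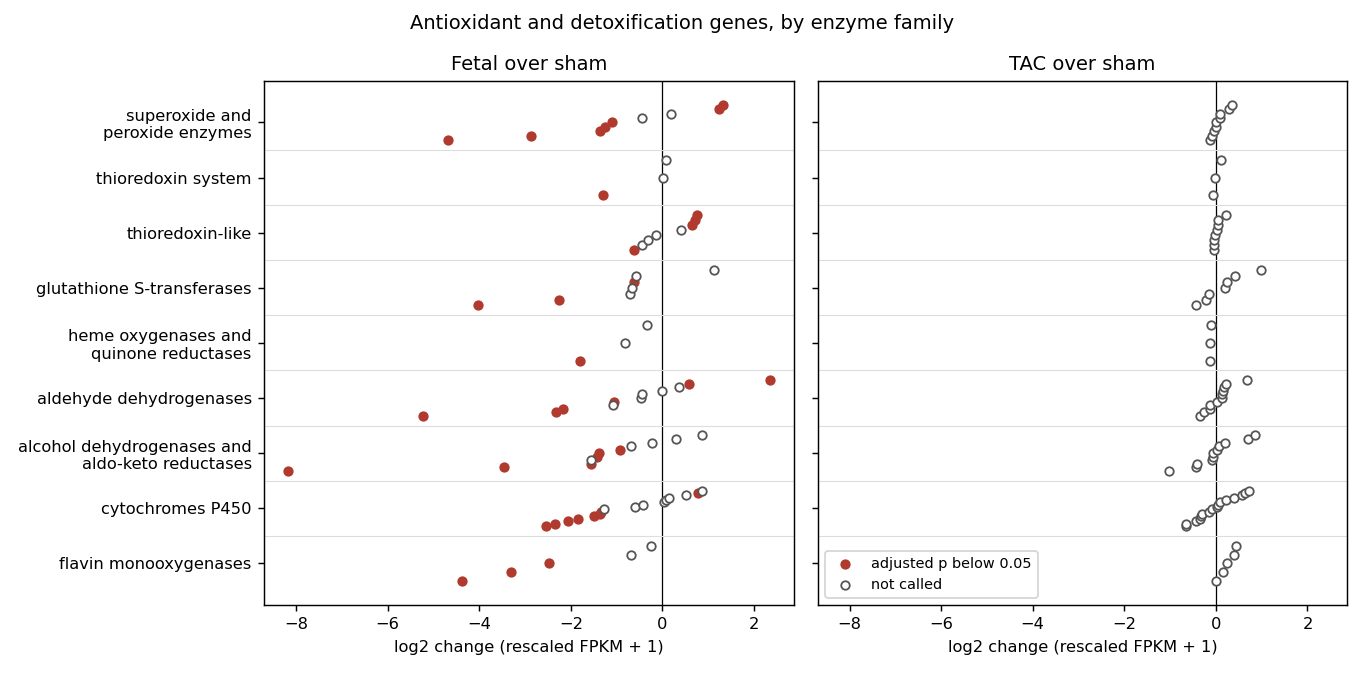
Log2 change of each tested member by enzyme family, fetal over sham on the left and TAC over sham on the right, with points called at an adjusted p below 0.05 filled; Fmod is not drawn. Filled points on the left lie mostly below 0 and reach -8.17, the 8 filled points above 0 are 3 thioredoxin-like genes, 2 aldehyde dehydrogenases, 2 peroxide enzymes and 1 cytochrome P450, and the right side has no filled point.

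Among enzymes of superoxide and peroxide, 5 of 9 tested genes fell (55.6%) and 2 rose (22.2%) in fetal ventricle. Over all tested loci 23.1% were lower and 22.5% higher. Sod3 (chr14:63381448-63387180 in rn4), the secreted superoxide dismutase that binds to the extracellular matrix, had 2.9, 3.11 and 4.35 in the fetal libraries, 172, 125 and 118 in TAC, and 177, 92.8 and 86.4 in sham. Every fetal library was below every adult library, while TAC and sham overlapped. The fitted change was -4.68 ± 0.29 (SE) on the log2 scale, with an adjusted p of 8.3e-06. Prdx5, a peroxiredoxin of mitochondria, peroxisomes and cytosol, had 75.2, 86.3 and 48.2 in fetal, 439, 493 and 454 in TAC, and 442, 548 and 525 in sham. That gene fell by 2.87 ± 0.21 in fetal ventricle (adjusted p = 2e-05). Catalase (Cat), the peroxisomal enzyme, averaged 95.1 ± 11.6 in fetal and 247 ± 31.5 in sham, a log2 change of -1.37. Prdx3, the mitochondrial peroxiredoxin and the highest tested member in both adult groups, averaged 218 ± 20.5 in fetal and 536 ± 155 in sham, a change of -1.26. Prdx6, a cytosolic peroxiredoxin that uses glutathione, averaged 128 ± 21.4 in fetal and 274 ± 35.6 in sham, a change of -1.10. For these 3 genes too no fetal library reached the lowest sham library.

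The 2 peroxide enzymes that rose both reside in the endoplasmic reticulum. Prdx4, which passes oxidising equivalents to newly made proteins there, had 78.8, 69.3 and 52.2 in fetal, 25.2, 28.6 and 24 in TAC, and 30, 25.4 and 22.4 in sham. The log2 change was 1.32 ± 0.18 (adjusted p = 0.000561). Gpx8, a membrane-bound glutathione peroxidase family member of that compartment, had 38.8, 26.3 and 29.4 in fetal, 17.6, 17 and 15.2 in TAC, and 17.3, 15 and 7.75 in sham, a change of 1.23 ± 0.28 (adjusted p = 0.00708). Fetal libraries lay above all adult libraries for both genes. Gpx7, a close relative of Gpx8 in the same compartment, was not called, at 24.3 ± 3.87 in fetal and 21.3 ± 2.29 in sham. Prdx1, the cytosolic peroxiredoxin, was not called either: fetal libraries had 119, 82.9 and 40.7, and sham libraries 171, 147 and 40.2, so replicates of a group differed more than the groups did.

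The 5 measured peroxiredoxins summed to 564 ± 108 in fetal, 1400 ± 51.6 in TAC and 1461 ± 238 in sham (SD, n = 3 each). Their make-up also differed. Prdx4 made up 11.9%, 11.9% and 11.6% of the sum in the fetal libraries, 1.87%, 1.96% and 1.72% in TAC, and 2.12%, 1.47% and 1.79% in sham. Prdx5 made up 11.4%, 14.9% and 10.7% in fetal, 32.5%, 33.9% and 32.6% in TAC, and 31.3%, 31.9% and 42% in sham. Prdx3 held 39.3% ± 4.11 in fetal and 36.3% ± 4.58 in sham, with overlapping libraries. The shares were not tested separately from the levels.

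**Figure D2:**
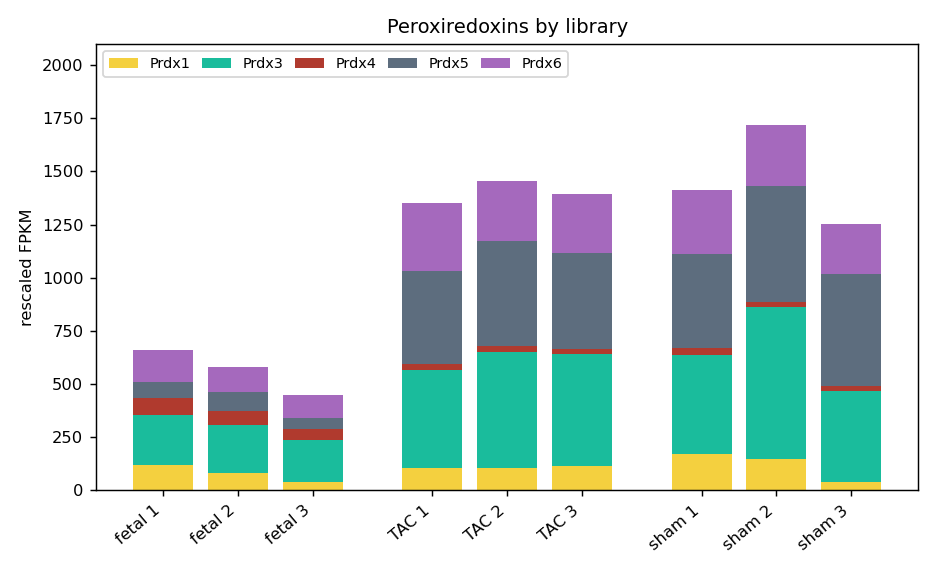
Stacked bars of rescaled FPKM of Prdx1, Prdx3, Prdx4, Prdx5 and Prdx6 in each library, by group. Fetal bars total 449 to 662, TAC bars 1352 to 1454 and sham bars 1251 to 1719. The Prdx4 segment is thicker in fetal bars than in TAC or sham bars, although the fetal bars are the lowest.

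In the thioredoxin system, cytosolic thioredoxin Txn1 and its reductase Txnrd1 were not called. Txnrd1 had 49.7, 45.2 and 49.7 in fetal, 55.3, 38.5 and 50.3 in TAC, and 47.7, 41.4 and 55.6 in sham, a log2 change of 0.01 ± 0.17 for fetal against sham. Txn1 averaged 161 ± 42.5 in fetal and 162 ± 81.1 in sham. Txnrd3, a reductase with an added glutaredoxin domain, fell to 6.91 ± 1.48 in fetal ventricle, against 18.6 ± 3.99 in sham, a change of -1.31 (adjusted p = 0.00318).

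Of 8 tested thioredoxin-like genes, 3 rose (37.5%) and 1 fell (12.5%), against 22.5% and 23.1% of all tested loci. Their median log2 change was 0.13. Txndc12, a small oxidoreductase of the endoplasmic reticulum, had 80.1, 88.1 and 95 in fetal, 66.5, 61.6 and 59.2 in TAC, and 57.5, 50.3 and 52.5 in sham, a change of 0.70 ± 0.12 for fetal against sham (adjusted p = 0.00163). Txndc1, which RefSeq names Tmx1 and which spans the membrane of that compartment, had 38.9, 40.3 and 26.7 in fetal, 15.8, 20.2 and 22.9 in TAC, and 18, 23.4 and 19 in sham, a change of 0.77. Txndc9, a cytosolic partner of the chaperonin that folds actin and tubulin, averaged 82.6 ± 15.2 in fetal and 51.5 ± 4.53 in sham, a change of 0.66. Fetal libraries lay above all sham libraries for these 3 genes. Txndc13, named Tmx4 in RefSeq and another membrane protein of the endoplasmic reticulum, went the other way, with 52.4 ± 3.54 in fetal and 81.6 ± 8.57 in sham (change -0.63); with equal library totals that call ended (adjusted p = 0.0769). The Txndc1 call ended without fetal replicate 1 (adjusted p = 0.0586), fetal replicate 2 (0.0599) or sham replicate 1 (0.0535), and on reference transcripts only (0.329). With replicates 2 and 3 alone the Txndc1 (0.0991) and Txndc9 (0.0876) calls ended.

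Among glutathione S-transferases, 3 of 7 tested genes fell (42.9%) and none rose, against 23.1% and 22.5% of all tested loci. Gsta1, of the alpha class that conjugates lipid peroxidation products, had 0.732, 0.447 and 0.119 in fetal, 36.9, 26.7 and 27 in TAC, and 29.2, 22.3 and 16.5 in sham. All fetal libraries were below 1, and the log2 change was -4.04 ± 0.26 (adjusted p = 1.07e-05). Reads from near-identical alpha-class copies such as Gsta2 could be split between them, so the value depends on how the submitters' processing assigned those reads. Gstk1, the mitochondrial and peroxisomal kappa-class enzyme, averaged 19.0 ± 3.3 in fetal and 93.7 ± 10.7 in sham, a change of -2.25. Gsto2 fell by 0.63 at levels near 2, with an adjusted p of 0.042 that became 0.0675 with the replicate number as a block, and 0.0538 to 0.171 without TAC replicate 2 or any single fetal or sham library. Gstp1, the pi-class enzyme, had 108, 49.4 and 46.9 in fetal, 114, 118 and 104 in TAC, and 118, 71.1 and 101 in sham, and was not called (adjusted p = 0.174). Fetal replicate 1 was far above the other fetal libraries, and without it the change was -0.96 with an adjusted p of 0.0106. Gsta4 (-0.71) and Gstm5 (1.12) were not called, and were with the replicate block (adjusted p = 0.0339 and 0.0215).

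Nqo1, the quinone reductase, had 4.31, 6.47 and 5.46 in fetal, 22, 20.5 and 16.5 in TAC, and 18.5, 21 and 24 in sham, a change of -1.79 ± 0.19 (adjusted p = 0.000142). Fetal and adult libraries did not overlap. Hmox1, which opens the heme ring, averaged 9.27 ± 1.89 in fetal and 12 ± 2.06 in sham and was not called.

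Aldehyde dehydrogenases changed in both directions: 4 of 11 tested genes fell (36.4%) and 2 rose (18.2%). Over all tested loci 23.1% were lower and 22.5% higher. Aldh1b1 (chr5:62311238-62316275 in rn4), a mitochondrial acetaldehyde dehydrogenase, had 5.03, 3.93 and 3.72 in fetal, 0.477, 0 and 0 in TAC, and 0, 0 and 0.0629 in sham. It was the largest increase among the members (2.35 ± 0.24, adjusted p = 0.000112), at a low level. Only fetal libraries reached a level of 1, so Aldh1b1 passed the filter through that group alone. It was not fitted with any fetal library left out. Aldh7a1, an enzyme of lysine breakdown, had 108, 129 and 75.8 in fetal, 73.9, 71.4 and 77.5 in TAC, and 62.5, 64 and 77.9 in sham, so fetal and sham libraries overlapped. Its adjusted p of 0.0385 became 0.0561 with the replicate block, the call was lost without fetal replicate 1 or 2, any TAC library or sham replicate 1 or 2 (0.0509 to 0.12), and 92.4% of its fetal level sat on transcripts assembled by the authors rather than on reference transcripts.

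On the falling side, Aldh1a1 (chr1:223731659-223773219 in rn4), which oxidises retinaldehyde to retinoic acid, had 2.25, 1.92 and 0.982 in fetal, 82.3, 86 and 102 in TAC, and 82.3, 123 and 93.5 in sham. Its change was -5.22 ± 0.23 (adjusted p = 2.14e-06). Counted on reference transcripts alone it was -4.28 and not called (adjusted p = 0.0784), and assembled transcripts held 79.4% of its level in TAC. Aldh6a1, a mitochondrial enzyme of valine breakdown, averaged 80.6 ± 8.13 in fetal and 409 ± 47.7 in sham, a change of -2.33. Aldh9a1, which acts in carnitine synthesis, averaged 67.7 ± 5.8 in fetal and 144 ± 22.5 in sham, a change of -1.07. Aldh3a1 was listed at 0 in the 3 fetal libraries and had 3.83, 8.17 and 7.64 in TAC and 8.98, 1.87 and 2.21 in sham.

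Of the aldo-keto reductases and alcohol dehydrogenases, 6 of 11 tested genes fell (54.5%) and none rose, against 23.1% and 22.5% of all tested loci. Akr1cl1 (chr17:77341133-77367689 in rn4), an aldo-keto reductase of the subfamily that acts on steroids and other carbonyl compounds, had 0.085, 0.222 and 0.207 in fetal, 276, 405 and 349 in TAC, and 291, 430 and 302 in sham. By mean level it ranked 71 of the 74 tested members in fetal and 5 in TAC and in sham. The log2 change of -8.17 ± 0.20 (adjusted p = 1.23e-07) was the largest decrease among the members, and the fetal levels rest on 2, 4 and 6 implied fragments. Akr1c14, the rat 3-alpha-hydroxysteroid dehydrogenase, had 1.17, 1.79 and 2.22 in fetal, 33.1, 29.6 and 28.1 in TAC, and 33.1, 34.6 and 20.7 in sham, a change of -3.46.

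Akr1c14 and Akr1cl1 lie in a cluster of 10 members within 398 kb of chromosome 17 in rn4. The 4 of them that were tested all fell in fetal ventricle: Akr1cl1, Akr1c14, Akr1c19 (-1.43) and Akr1cl2 (-1.38). The Akr1c19 call ended with replicates 2 and 3 alone (adjusted p = 0.0708) and the Akr1cl2 call on reference transcripts only (0.144). The other 6 did not pass the filter. Of these, Akr1c12 had the highest level, 6.17 in TAC replicate 2. Members of such a cluster resemble each other in sequence, and reads could be shared between them. Elsewhere, Akr7a2, which reduces aldehydes, averaged 20.7 ± 1.35 in fetal and 63.3 ± 4.84 in sham, a change of -1.57. Akr1a1, the general aldehyde reductase and the highest tested member in fetal ventricle, averaged 334 ± 39.6 in fetal and 392 ± 67.1 in sham and was not called. Akr1b1, aldose reductase, averaged 115 ± 36.6 in fetal and 218 ± 61 in sham (adjusted p = 0.0414), a call that ended without fetal replicate 2 or 3, TAC replicate 2 or sham replicate 1 or 2 (0.056 to 0.126). Akr1b10 (-1.56) was not called, and was with the replicate block (adjusted p = 0.0112).

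**Figure D3:**
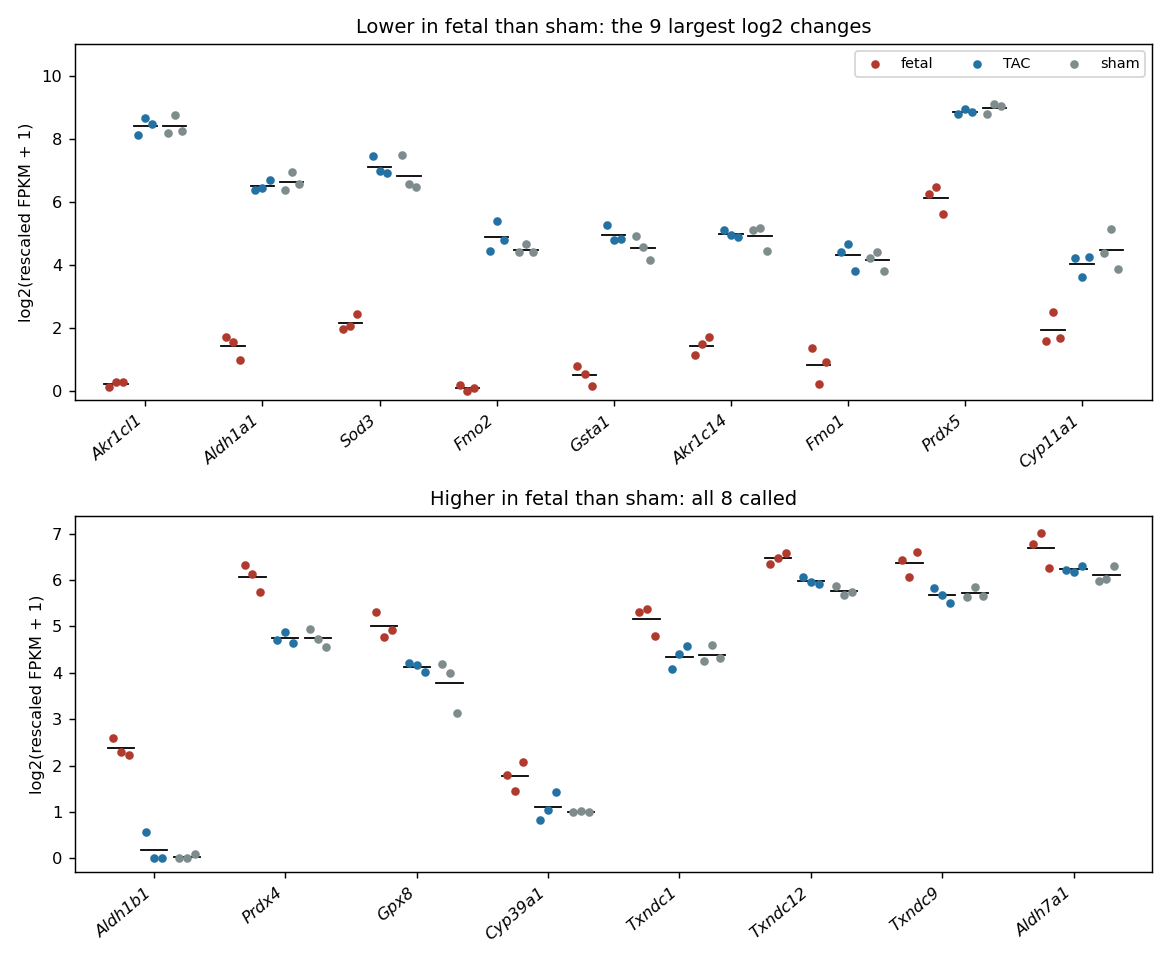
Levels of called members by library on a log2(rescaled FPKM + 1) axis, fetal, TAC and sham from left to right within each gene, with a bar at each group's mean. The upper plot holds the 9 largest decreases and the lower one the 8 increases; in the upper plot every fetal point lies below every adult point of its gene, and in the lower plot Aldh7a1 has overlapping groups.

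Flavin monooxygenases oxidise nitrogen and sulfur in drugs and amines. Fmo2 had 0.142, 0 and 0.0529 in fetal, 20.6, 40.4 and 26.8 in TAC, and 20, 24 and 19.9 in sham, with a fitted change of -4.39 ± 0.24 (adjusted p = 5.74e-06). Fmo1 had 1.57, 0.153 and 0.879 in fetal, 20.3, 24.2 and 13 in TAC, and 17.6, 20 and 12.9 in sham, a change of -3.31 (adjusted p = 0.000121). For both genes every fetal library was below every adult library, while TAC and sham overlapped. Fmo4, which like Fmo1 and Fmo2 lies on chromosome 13 in rn4, was not called, at 0.723 ± 0.281 in fetal and 1.03 ± 0.252 in sham. Fmo5, on chromosome 2, was not called either (1.37 ± 0.376 in fetal and 2.86 ± 0.804 in sham).

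Cytochromes P450 were weakly expressed: only 16 of 63 passed the filter, and all 63 together summed to 62.8 ± 1.41 in fetal, 117 ± 15.6 in TAC and 121 ± 18.5 in sham. Of the 16, 7 fell (43.8%) and 1 rose (6.25%) in fetal ventricle, against 23.1% and 22.5% of all tested loci. Cyp11a1, the mitochondrial enzyme that starts steroid synthesis by cleaving the cholesterol side chain, had 2.01, 4.61 and 2.21 in fetal, 17.3, 11.2 and 18.1 in TAC, and 19.6, 34.4 and 13.6 in sham, a change of -2.54 (adjusted p = 0.000812). In sham 96.6% of that level was on assembled transcripts, and on reference transcripts alone the change was 1.11 and not called (adjusted p = 0.595). Cyp2e1, which oxidises ethanol and small solvents, averaged 0.558 ± 0.28 in fetal and 6.93 ± 1.48 in sham (-2.35). Cyp4f5 (-1.85) and Cyp4f6 (-1.50), of the family that hydroxylates leukotrienes and fatty acids, fell, as did Cyp2j4 (-1.35), of the family that makes epoxides of arachidonic acid, and Cyp2d4v1 (-2.06); the last 2 were not called on reference transcripts only (adjusted p = 0.125 and 0.103). The seventh, Cyp4f1 (-1.37, adjusted p = 0.0396), had an adjusted p of 0.0507 with the replicate block and 0.0502 to 0.113 without TAC replicate 2 or any single fetal or sham library, and Cyp2j13 (-1.28), not called, had 0.0216 with it.

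Cyp39a1, an oxysterol hydroxylase, was the P450 that rose, at 2.48, 1.76 and 3.23 in fetal, 0.775, 1.07 and 1.72 in TAC, and 0.998, 1.04 and 0.999 in sham (0.77 ± 0.25, adjusted p = 0.0339). The call ended without fetal replicate 1 (adjusted p = 0.0991), without fetal replicate 3 (0.152) and without any single sham library (0.0724 to 0.0757), with replicates 2 and 3 alone (0.139) and on reference transcripts only (0.345). Cyp7b1, another oxysterol hydroxylase, at 2.69 ± 0.958 in fetal and 0.999 ± 0.277 in sham, missed the threshold (adjusted p = 0.0522). Cyp26b1, which degrades retinoic acid, was not called, at 2.53 ± 0.279 in fetal and 2.38 ± 1.47 in sham.

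Genes of the same pathways outside the enzyme families were described from a list of 76, of which 48 had a symbol and 45 were tested. In fetal ventricle 23 were lower than in sham (51.1%), 1 was higher (2.22%) and 21 were not called. Over all tested loci 23.1% were lower and 22.5% higher. The median log2 change of the tested genes of the list was -0.86. The regulator Nfe2l2 itself was not called, at 39.7 ± 4.03 in fetal and 42.9 ± 2.06 in sham, while its repressor Keap1 fell to 18.1 ± 1.56 in fetal ventricle, against 41.5 ± 2.96 in sham, and its partner Mafk to 15.8 ± 4.25 in fetal ventricle, against 33.7 ± 4.15. For glutathione synthesis, Gclc (-0.02) and Gss (0.40) were not called.

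Of the listed genes that make reactive oxygen, some were lower and Nox4 was not called. Xanthine dehydrogenase (Xdh), which forms superoxide and peroxide in its oxidase form, had 0.665, 0.717 and 0.477 in fetal, 45.8, 47.7 and 37.1 in TAC, and 49, 39.3 and 38.7 in sham, a change of -4.74 ± 0.17 (adjusted p = 9.64e-07). The NADPH oxidase subunit Cybb (-2.35) and monoamine oxidase B (Maob, -2.30) fell as well. The NADPH oxidase Nox4 had 2.21, 1.31 and 1.92 in fetal, 4.42, 3.49 and 1.74 in TAC, and 3.29, 4.72 and 2.6 in sham, a change of -0.68 with an adjusted p of 0.109. Malic enzyme Me1, a supplier of NADPH, averaged 9.62 ± 3.74 in fetal and 126 ± 13.1 in sham (-3.64). Idh1 fell as well (-0.77, adjusted p = 0.0259 in limma). The pentose phosphate enzyme transketolase (Tkt) averaged 113 ± 6.01 in fetal and 41.5 ± 10.8 in sham (1.45), the increase of the list. Por, the reductase that supplies electrons to microsomal P450 enzymes, averaged 18.8 ± 0.09 in fetal and 60.1 ± 5.23 in sham (-1.62). The mitochondrial uncoupling protein Ucp3 was listed at 0 in the fetal libraries and averaged 14.8 ± 6.42 in sham.

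Markers of other cell types differed too, lower for some cell types and higher for others, and their part in these results was not tested. Over all tested loci 23.1% were lower in fetal ventricle than in sham and 22.5% higher. Of 7 tested fibroblast markers, 6 were lower in fetal ventricle than in sham, and their summed level was 191 to 252 in fetal, 1551 to 1646 in TAC and 1091 to 1572 in sham. Macrophage markers were lower for 7 of 8 genes, with sums of 61.8 to 69.8 in fetal, 302 to 496 in TAC and 281 to 518 in sham. Lymphocyte markers were lower for 4 of 6, with sums of 5.23 to 5.49 in fetal, 55.8 to 80.7 in TAC and 52.6 to 73.7 in sham, and Cd3e was listed at 0 in every fetal library. The highest lymphocyte markers in sham were Ccl5 (mean 28.6) and Cd4 (mean 24.0). Endothelial markers were lower for 3 of 5 (126 to 225 in fetal, 249 to 359 in TAC and 217 to 333 in sham), and both tested adipocyte markers, Fabp4 and Cfd, were lower (105 to 220 in fetal, 714 to 1186 in TAC and 604 to 906 in sham). The adipocyte sums were mostly Fabp4, which averaged 177 in fetal, 886 in TAC and 752 in sham. The adipocyte markers Cidec, Lep and Retn did not pass the filter. Epicardial markers were higher for 2 of 4 genes (33.8 to 50 in fetal, 12.2 to 16.3 in TAC and 9.98 to 15.7 in sham). Erythroid markers were higher for 4 and lower for 1 of 9, with sums of 17050 to 27190 in fetal, 4969 to 10100 in TAC and 5034 to 12560 in sham. These sums were mostly Hba-a2, which averaged 20770 in fetal, 6775 in TAC and 9533 in sham. Against sham Hba-a2 was not called (adjusted p = 0.0963 in limma). Smooth muscle markers were higher for 1 of 3, Cnn1. Of 7 hepatocyte markers only transthyretin (Ttr) passed the filter, and it was lower, at 2.27 ± 0.556 in fetal and 42.9 ± 8.89 in sham. Albumin (Alb) stood at 8.99, 2.4 and 0 and alpha-fetoprotein (Afp) at 6.98, 0 and 0 in the fetal libraries, and neither exceeded 0.0617 in an adult library.

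TAC was set against sham to ask whether pressure overload changed these genes; the sham libraries are those of the fetal comparison. None of the 74 tested members was called by limma, and 2 of all 14148 loci (0.0141%) were. At an unadjusted p below 0.05 there were 2 members, against 613 of all loci (4.33%). The median log2 change was 0.01 over the tested members and -0.01 over all loci, and 64 members differed by less than 0.5 in either direction. No member was called in any of the 17 alternatives. TAC libraries lay above all sham libraries for 6 members and below them for none, against 4.28% and 4.57% of all loci.

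The 5 members with the smallest unadjusted p were Cyp2j10, Cyp4v3, Gstm5, Cyp4f5 and Akr1c19, all with an adjusted p of 1. Cyp2j10 had 1.8, 2.01 and 1.48 in TAC and 0.407, 1.43 and 0.378 in sham (log2 change 0.71 ± 0.29, unadjusted p = 0.0386 in limma). Cyp4v3, a fatty acid hydroxylase, had 17.2, 15.4 and 17.3 in TAC and 14.3, 9.31 and 8.17 in sham (0.64 ± 0.27, unadjusted p = 0.041 in limma). For both genes the libraries of the groups did not overlap, but sham libraries differed among themselves. Gstm5 (0.98 ± 0.48) and Cyp4f5 (-0.65 ± 0.33) had overlapping groups. Akr1c19 had 9.16, 21.7 and 8.68 in TAC and 6.67, 7.54 and 6.97 in sham, with TAC replicate 2 far above the rest.

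**Figure D4:**
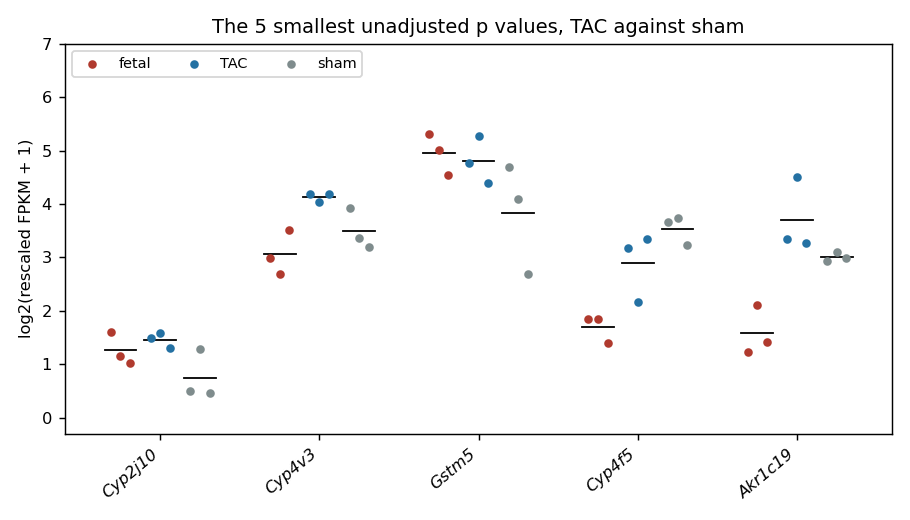
Levels by library of the 5 members with the smallest unadjusted p in TAC against sham, on a log2(rescaled FPKM + 1) axis with a bar at each group's mean, fetal, TAC and sham from left to right. TAC points stand above all sham points for Cyp2j10, Cyp4v3 and Akr1c19, and overlap them for Gstm5 and Cyp4f5.

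Members with the largest fetal differences had similar means in both adult groups, though the test does not show that they were equal. Akr1cl1 averaged 343 ± 64.7 in TAC and 341 ± 77.0 in sham (log2 change 0.01 ± 0.20). Sod3 averaged 138 ± 29.0 in TAC and 119 ± 50.5 in sham (0.28 ± 0.29), and Prdx5 462 ± 28 in TAC and 505 ± 55.5 in sham (-0.12 ± 0.21). The genes that were higher in fetal ventricle were not called either: Prdx4 differed by 0.01 ± 0.18 between TAC and sham, Gpx8 by 0.36 ± 0.28 and Aldh1b1 by 0.16 ± 0.24. The stress-responsive Hmox1 had 5.59, 22.7 and 9.59 in TAC and 9.61, 13.2 and 13.2 in sham, so TAC replicate 2 was the highest and TAC replicate 1 the lowest of the 6. Of the 45 tested pathway genes none was called by limma, with 2 at an unadjusted p below 0.05.

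Fetal ventricle was also set against TAC, a comparison that shares the fetal libraries with that against sham, so it is not independent of it. In fetal ventricle 30 tested members were lower than in TAC and 6 higher, against 22.9% and 22.8% of all loci (3241 lower and 3230 higher, or 2305 lower and 3656 higher when libraries were scaled to equal totals), with a median of -0.64 over the tested members. Fetal libraries lay above all TAC libraries for 7 tested members and below them for 36, against 28.4% and 27.7% of all loci. The largest changes were again those of Akr1cl1 (-8.18), Aldh1a1 (-5.09), Sod3 (-4.96), Fmo2 (-4.78) and Gsta1 (-4.45). On reference transcripts only, the Aldh1a1 change was -1.77 and not called (adjusted p = 0.452). Prdx4 (1.31), Aldh1b1 (2.19), Txndc1 (0.81), Txndc9 (0.70), Txndc12 (0.48) and Gpx8 (0.87) were the 6 higher ones. The Gpx8 call had an adjusted p of 0.0324 and ended without fetal replicate 1 or 3 or any single TAC library (0.0569 to 0.107). On reference transcripts only, Gpx8 (0.0755), Txndc1 (0.555), Txndc9 (0.0778) and Txndc12 (0.053) were not called, which left 2 higher calls. The Txndc1 call also ended with replicates 2 and 3 alone (0.112), as did that of Gpx8 (0.104). Aldh7a1 (0.46, adjusted p = 0.0895) and Cyp39a1 (0.68, 0.0554) were not called. Akr1b1 (-0.86) and Gstp1 (-0.82) were not called without the replicate block and were with it (adjusted p = 0.00203 and 0.0337).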

How the data were processed

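Per the labels, libraries were made with a TruSeq RNA kit that does not mark strand and sequenced on an Illumina GAIIx. The submitters' processing notes name TopHat 1.3.1, Cufflinks 1.0.3 and Cuffdiff, with genome build rn4. The deposited FPKM values carry a constant that differs between libraries, and each library was assembled separately. Loci were therefore joined through 39492 reference transcripts, a locus being the sum of its reference and assembled transcripts. Loci were kept if their longest reference transcript had at least 200 nt. Libraries were rescaled by the median of ratios over 13170 loci above 0 in all, with a mean total of 1e+06. The filter was a level of 1 or more in 3 or more libraries, and all 9 libraries were fitted together on log2(level + 1) with limma 3.58.1 in R 4.3.3 (trend, Benjamini-Hochberg, 0.05), tested on simulated data. Without strand, overlapping genes cannot be told apart. The members, lists and alternatives were chosen with earlier results of these data known. Named are called members with the 10 largest fetal changes each way, the 5 smallest p in TAC against sham and a list of core antioxidant genes; members beyond these were named after their values were seen, to account for each family, and 1 member that the rule names is not reported here. Libraries with the same replicate number deviated together (correlations of 0.155 to 0.516, each above the 0.1 asked for), so the numbers were taken to pair them in an alternative fit. Libraries numbered 2 and 3 in different groups also correlated (0.121 to 0.285), and only replicate 1 stood apart. Fits with the number as a block are given where they change a call. Changes, SEs and p-values given without a named alternative come from the fit with group as its only term. Alternatives were equal totals, a pseudocount of 0.1, no filter, a filter of 5, each library left out, the block, replicates 2 and 3 alone, only the libraries compared, and reference transcripts only. Promoters are RefSeq's, GRCr8.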

Additional observations from a re-analysis of the deposited data

How the results depend on the processing

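Called members numbered 39 for fetal against sham, and 27 to 42 over the alternatives. For fetal against TAC they numbered 36, and 23 on reference transcripts only. Over all loci, reference transcripts only gave 2060 calls for fetal against sham (6460 otherwise), 2139 for fetal against TAC (6471 otherwise) and 41 for TAC against sham, where the count was 2, 2 to 5 with a library left out and 10 with replicates 2 and 3 alone. Scaling to equal totals moved the median log2 change of all loci to 0.19 for fetal against sham (otherwise 0.05). Of the members called in fetal against sham, 25 were called in every alternative that tested them and 14 were not. With the replicate block 40, 0 and 38 members were called for fetal against sham, TAC against sham and fetal against TAC, and it changed no other call than those given with its value. On reference transcripts only, these changes turned sign for fetal against sham: Aldh7a1 to -4.66, Cyp11a1 to 1.11, Gpx7 to -0.56 and Hmox1 to 0.23; and for fetal against TAC: Aldh7a1 to -1.73, Gpx7 to -0.55 and Txn1 to 0.15. Changes near 0 turned sign as well. With a library left out, Txn1 ran from -0.27 to 0.45 and Txnrd1 from -0.095 to 0.11 for fetal against sham. For fetal against TAC, Txn1 ran from -0.42 to 0.22, Txnrd1 from -0.13 to 0.13 and Hmox1 from -0.64 to 0.28. Txnrd1 was -0.017 for fetal against sham with replicates 2 and 3 alone, and Txn1 0.19 for fetal against TAC with equal totals. The cause was not tested. Aldh1b1, Cyp39a1 and Cyp2j10 could not be fitted in the alternatives whose filter they missed. Precision is limited by 3 libraries a group and by depth: the median implied fragments per tested member ran from 80.5 in fetal replicate 2 to 300 in sham replicate 1.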
